A study of Mus musculus with 18 samples.

Results

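The infarct core of mice lacking Trem2 was compared with contralateral brain tissue of mice of the same genotype, 7 days after a photothrombotic stroke. The comparison holds every library labelled knockout and core (3) and every library labelled knockout and contralateral (3), which is 6 of the 18 libraries of the study, and its fit used no other library. Adult male C57Bl6 mice aged 8 to 10 weeks were given 50 mg/kg of Rose Bengal into the abdomen, and a laser of 525 nm and 125 mW then closed cortical vessels over a circle 3 mm wide. Tissue was dissected after staining with TTC, a dye that living tissue turns red, and polyadenylated RNA was sequenced. Knockout mice gave core, peri-infarct and contralateral tissue, and so did Trem2 wild-type mice, with 3 libraries for each of the 6 groups. Contralateral tissue came from animals that also carried the dye and the lesion, and no uninjured animals were analysed here. The labels name the genotype without the allele. They do not tie a library number to an animal either, so p-values measure the spread between these libraries, which may be partly technical.

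Trem2 is a receptor of microglia and macrophages that binds lipids, apolipoproteins and debris and signals through the adaptor Tyrobp and the kinase Syk. In a brain infarct the dead core is filled by microglia and by macrophages from the blood, which clear myelin and cell debris, while astrocytes wall off the lesion and fibroblasts lay down matrix inside it. The comparison describes how far this takes place where the receptor is missing. In whole tissue, fewer cells of a type and less RNA per cell cannot be told apart.

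The knockout libraries held 16993978 to 17611560 counts, and 16830 to 17069 genes were detected in each of the 6 libraries compared. Trem2 itself checked the genotype labels. Its level was 5.64, 8.42 and 5.28 CPM (counts scaled to a common library total) in the knockout core, 2.40, 3.09 and 3.82 CPM in knockout peri-infarct tissue and 0.699, 0.925 and 0.346 CPM in knockout contralateral tissue. Wild-type libraries held 186, 214 and 929.6 CPM in the core, 127, 89.2 and 124 CPM in peri-infarct tissue and 28.1, 20.9 and 27.8 CPM on the contralateral side. Every knockout library was below every wild-type library of its region. The few remaining Trem2 counts were nevertheless higher in the knockout core than contralaterally, with a log2 fold change of 3.30 ± 0.35 (SE, n = 3 against 3). Among the wild-type cores, replicate 3 was unlike every other library, with 15.5% of its counts in 10 genes and 16216 genes detected, so the genotype comparison is given with and without it. On the first principal component of the 9 knockout libraries, which carried 74.6% of the variance, core libraries lay between 59.8 and 80.4, peri-infarct libraries between -10.9 and 1.69 and contralateral libraries between -66.0 and -63.0.

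The knockout core differed from contralateral tissue across more genes than not. Of 14964 genes tested with edgeR's quasi-likelihood test, 8384 (56.0%) passed a Benjamini-Hochberg adjusted p of 0.05. Of these 4517 were higher in the core (30.2% of the genes tested) and 3867 were lower (25.8%). Rises were larger than falls. The median log2 fold change was 0.96 among the genes that rose and -0.58 among those that fell, and 2201 rises but 466 falls were past 2-fold, while 564 rises but 17 falls were past 8-fold. Over all genes tested the median was 0.0037. With limma on log2(TPM + 1) of the deposited TPM values, 3586 genes were higher and 5143 lower. There 41.1% of calls were rises, against 53.9% in the main fit, and the median over all genes was -0.12. That alternative had another test and filter and no scaling factor between libraries, and which of these moved the balance was not tested. On counts with RLE or upper-quartile scaling factors, 51.8% and 51.7% of calls were rises in the same order. In 9853 genes (65.8%) the 3 core libraries did not overlap the 3 contralateral ones, which is the background for each statement on overlap below. Likewise, 30.2% higher and 25.8% lower are the background for each count of list members called higher or lower below. The gene groups described below come from 46 lists of cell type markers and pathways with 683 genes, of which 650 were tested, 30 were in the table but too low to test and 3 were not in the table. In what follows a gene's value in brackets is its log2 fold change ± SE, knockout core over knockout contralateral tissue, from 3 against 3 libraries, and an adjusted p is edgeR's over all genes tested. A list's median is over its tested members. In each called gene whose 6 values are printed below, the core and contralateral libraries did not overlap.

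**Figure D1:**
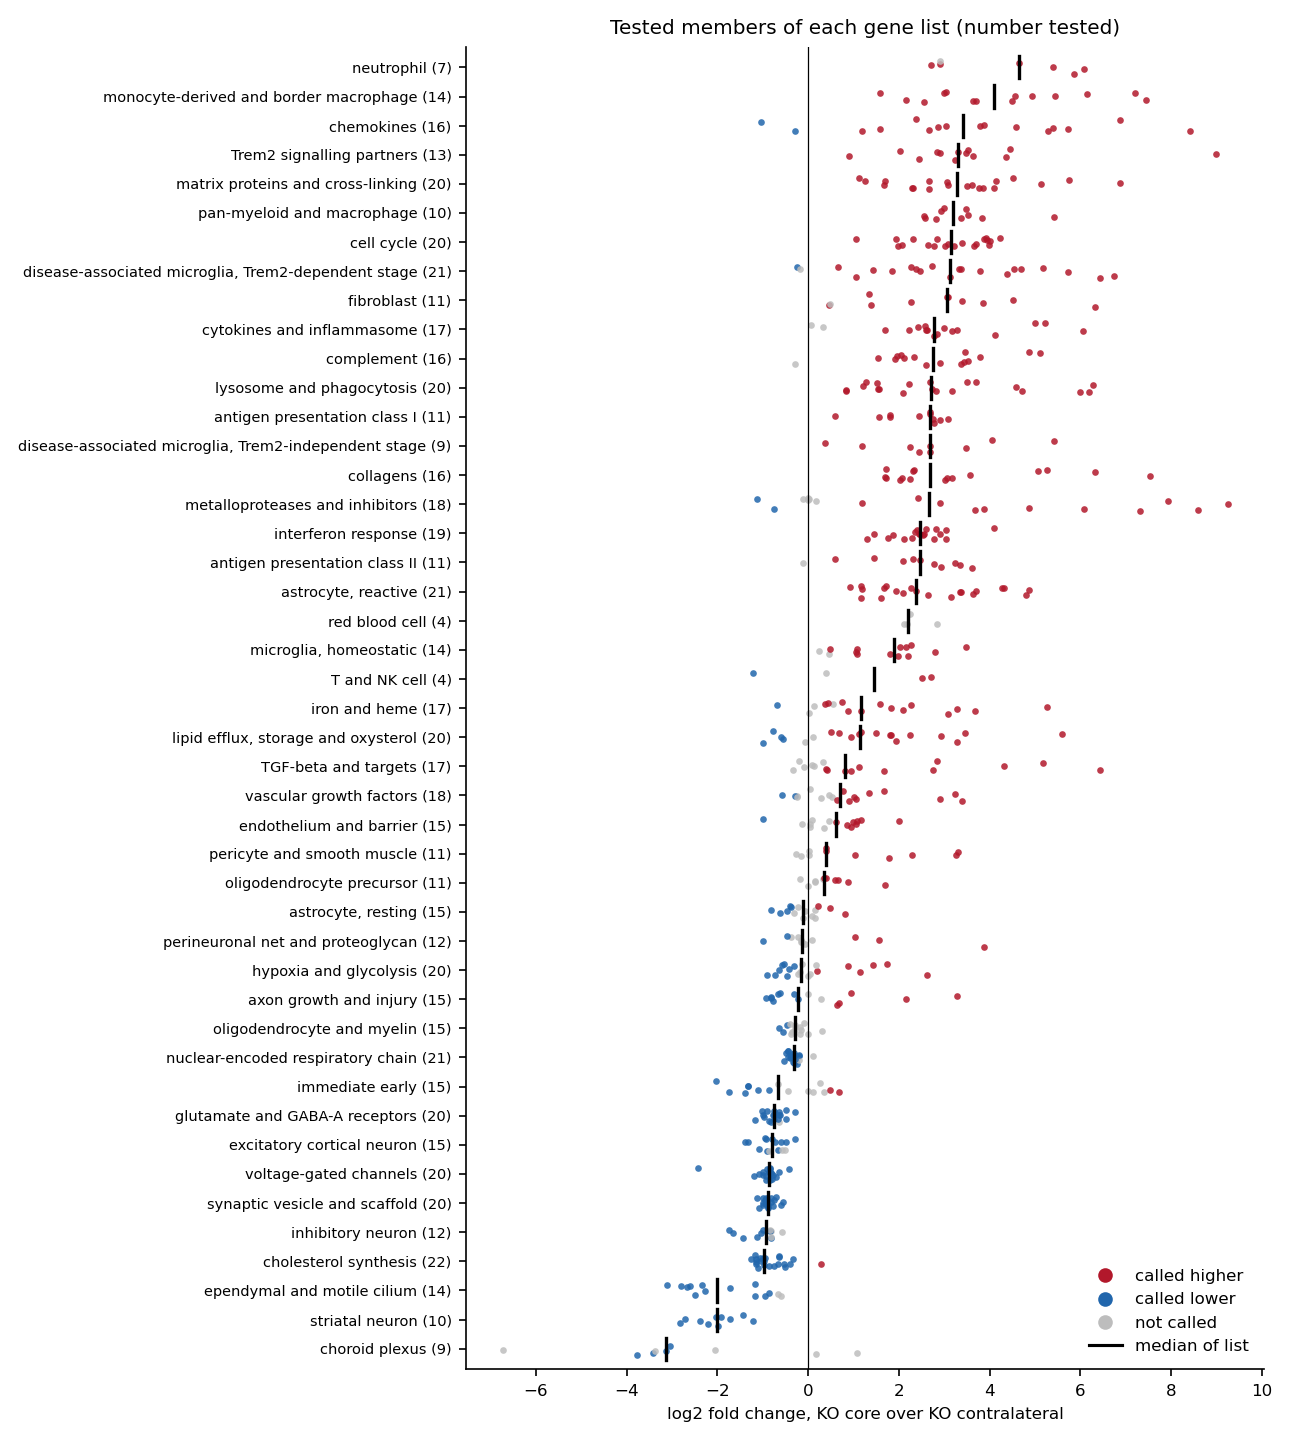
Each point is a tested gene of the list named on the left (number of tested members in brackets) and its position is the log2 fold change of the knockout core over knockout contralateral tissue, fitted on 3 against 3 libraries. Red points were called higher, blue points lower and grey points were not called, and the black bar is the median of the list. Lists of phagocytes, matrix and cell division lie to the right of 0 and lists of neurons, cilia and cholesterol synthesis to the left.

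Several genes that phagocytes make were among the most abundant of the knockout core, beside genes that were abundant on both sides, such as the ferritin heavy chain Fth1 (rank 4 in the core and 2 contralaterally) and the protease inhibitor Cst3 (rank 7 and 3 in the same order). Ranked by mean TPM, a level per transcript length, Apoe, the main lipid carrier of the brain, came to 19019 ± 3396 TPM in the core and 4472 ± 189 TPM contralaterally (SD, n = 3), at rank 1 in the core and rank 5 on the contralateral side. Ctsd, the lysosomal protease cathepsin D, held rank 2 with 9732 ± 1262 TPM in the core and rank 233 with 649.6 ± 151 TPM contralaterally. Spp1, the secreted matrix cytokine osteopontin, held rank 6 in the core and rank 2798 contralaterally, with 6671 ± 652 and 69.1 ± 37.8 TPM in the same order. The light chain of the iron store ferritin (Ftl1) and the macrophage lysozyme gene Lyz2 were likewise at ranks 8 and 11 in the core, and at ranks 178 and 1665 contralaterally. The 5 genes of this ranking from Apoe to Lyz2 were chosen after their values were seen.

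The largest rises were ranked among called genes without overlap, with a mean log2 CPM of 1 or more and a proper symbol. Genes at lower levels could have larger fitted rises. Under these conditions the 10 largest rises were those of Mmp12, Mmp3, Mmp13, Cxcl2, Cxcl3, Lrrc15, Col3a1, Arg1, Lilr4b and Prl2c2. Mmp12, the macrophage elastase, had 638, 978 and 487 counts in the core libraries and 1, 2 and 0 in the contralateral ones, a ratio of 669 (95% interval 229 to 3248) at equal depth. A pair of other metalloproteases was in this group. Mmp3, stromelysin, had 244, 315 and 280 core counts and 1, 0 and 2 contralateral counts, a ratio of 267 (95% interval 91.1 to 1298), and Mmp13, a collagenase, was at 13.8, 26.6 and 17.2 CPM in the core and 0.0583, 0.116 and 0.173 CPM contralaterally (7.31 ± 0.41). The neutrophil chemokine Cxcl2 had 155, 135 and 192 counts in the core and 0, 0 and 1 contralaterally, and its neighbour Cxcl3 had 73, 77 and 52 in the core and none in the 3 contralateral libraries, which is at least 64.3-fold higher against a floor of 3 counts over the group. Lrrc15, a surface protein of activated fibroblasts, had 95, 174 and 152 core counts and 0, 1 and 0 contralateral counts, a ratio of 402 (95% interval 71.8 to 15916). Col3a1, a fibrillar collagen, was at 598, 1183 and 914 CPM in the core and 4.66, 3.06 and 7.10 CPM contralaterally (7.53 ± 0.38, adjusted p = 5.6e-06). Arg1, arginase of repair macrophages, was at 50.1, 57.2 and 46.3 CPM and 0.408, 0.116 and 0.346 CPM in the same order (7.45 ± 0.22, adjusted p = 2.9e-06). Lilr4b, an inhibitory leukocyte receptor, rose by 7.97 ± 0.30, and the placental hormone gene Prl2c2 had 79, 139 and 37 counts in the core and none contralaterally, at least 81.2-fold. Both belong to families of near-identical genes whose reads may have been split. Intervals and floors cover counting error only.

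**Figure D2:**
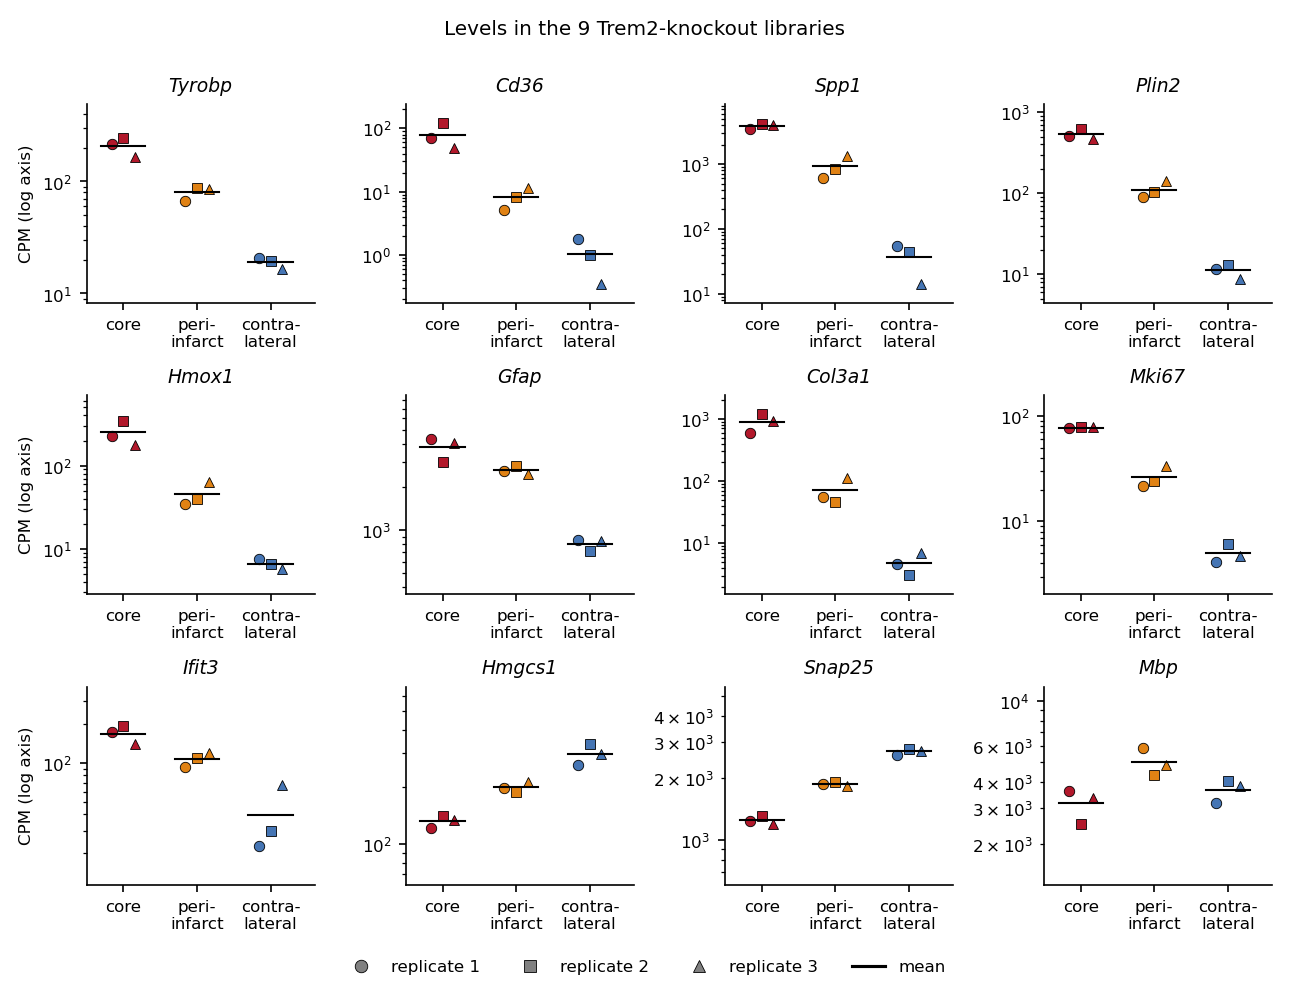
CPM on a log axis for 12 genes in the 9 knockout libraries, with core, peri-infarct and contralateral tissue from left to right, 1 symbol per replicate and a bar at the mean. The means of Tyrobp to Ifit3 are highest in the core and lowest contralaterally, those of Hmgcs1 and Snap25 are lowest in the core and highest contralaterally, and that of Mbp is highest in peri-infarct tissue.

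Without Trem2 the partners of its signalling pathway were all higher in the core. All 13 tested members rose (median 3.31). Tyrobp, the adaptor that Trem2 and several other receptors share, was at 215, 244 and 166 CPM in the core and 20.8, 19.5 and 16.4 CPM contralaterally (3.49 ± 0.16, adjusted p = 4.6e-06). The kinase Syk, which Tyrobp recruits, was at 73.9, 94.8 and 61.9 CPM in the core and 8.39, 8.55 and 6.63 CPM contralaterally (3.31 ± 0.18), and the exchange factor Vav1 rose by 3.25 ± 0.16. Groups did not overlap for any of the 3. The related receptor gene Trem1, named after its values were seen, signals through Tyrobp as well and had 48, 90 and 55 counts in the core and none contralaterally, which is at least 61.4-fold higher. With that bound in place of the fitted value the median of the list was again 3.31.

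Disease-associated microglia are a state described around amyloid plaques in mice, in which the first stage forms without Trem2 and the second needs it. Both gene sets were high in the knockout core. All 9 tested genes of the first stage rose (median 2.68), among them Ctsd (4.06 ± 0.21), Apoe (2.24 ± 0.14) and the protease Ctsb (2.68 ± 0.15), with the ferritin heavy chain Fth1 at the low end (0.38 ± 0.08). Of 21 genes of the second stage 19 rose (median 3.14). Cst7, an inhibitor of lysosomal cathepsins, was at 28.0, 21.7 and 17.1 CPM in the core and 0.933, 1.33 and 0.981 CPM contralaterally (4.38 ± 0.24, adjusted p = 7.9e-06). Lpl, the lipase that releases fatty acids from lipoproteins, averaged 109 ± 25.8 CPM in the core and 19.9 ± 1.89 CPM contralaterally (SD, n = 3 each), without overlap (2.47 ± 0.18). The secreted growth factor Csf1 (1.85 ± 0.08), the lysosomal tetraspanin Cd63 (2.38 ± 0.08) and the protease Ctsl (2.72 ± 0.10) had the smallest p-values of the set. Outside this pattern, the phosphate transporter gene Ank fell (-0.24 ± 0.06), and the adhesion gene Cadm1 was not called. Most of these genes are also made by macrophages from the blood, whose markers rose as given next.

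Marker genes of microglia, macrophages and neutrophils were higher in the knockout core. Of 14 genes of resting microglia 12 rose (median 1.90), from the purine receptor P2ry12 at 125, 106 and 72.8 CPM in the core and 44.6, 54.0 and 48.7 CPM contralaterally (1.07 ± 0.18, adjusted p = 0.0015) to the Fc receptor-like gene Fcrls at 569.9, 591 and 396 CPM and 59.3, 48.4 and 34.2 CPM in the same order (3.48 ± 0.24). Tmem119, a microglial surface protein, rose by 1.81 ± 0.14, and 2 members, Siglech and Slc2a5, were not called. Markers that microglia share with all macrophages rose in 10 of 10 cases (median 3.19), with the leukocyte phosphatase Ptprc at 97.5, 119 and 70.9 CPM in the core and 9.50, 8.44 and 7.56 CPM contralaterally (3.52 ± 0.20) and the macrophage receptor Adgre1 up by 3.84 ± 0.18. The core libraries were not equal in this respect, since summed levels of those shared markers were 3187, 4196 and 2506 CPM in core replicates 1, 2 and 3, and 248, 224 and 176 CPM contralaterally.

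Genes of macrophages from blood monocytes and from the brain borders had a higher median than those of microglia. All 14 rose (median 4.09), and their summed level was 569, 845 and 580.1 CPM in the core and 26.7, 19.1 and 16.7 CPM contralaterally. The chemokine receptor Ccr2, which brings monocytes out of the marrow, was at 9.04, 10.5 and 8.75 CPM in the core and 0.525, 0.694 and 0.981 CPM contralaterally (3.70 ± 0.23, adjusted p = 1.2e-05). Pf4 (platelet factor 4, also of border macrophages) rose by 4.49 ± 0.24, the clotting factor gene F13a1 by 4.55 ± 0.25 and the membrane protein Ms4a7 by 4.93 ± 0.34. Neutrophil genes were low in CPM but rose in 6 of 7 tested cases (median 4.64). The calcium-binding proteins S100a8 and S100a9 reached 10.0, 22.8 and 11.4 CPM and 10.9, 25.6 and 12.6 CPM in the core, and 0.175, 0.405 and 0.173 CPM and 0.583, 1.10 and 0.288 CPM contralaterally, and the receptor Cxcr2 rose by 5.40 ± 0.36. Core replicate 2 was the highest for each of these 3. That library also held the most red cell transcripts, with sums of 3.29, 99.9 and 7.26 CPM in core replicates 1, 2 and 3. The part of residual blood in the neutrophil genes was not tested. Ly6g, which defines neutrophils, had at most 1 count in any of the 6 libraries and was not tested.

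Lymphocyte genes were close to the limit of detection. Of 14 T and NK cell markers 4 could be tested. The killer-cell coreceptor Cd8a (0.781, 1.25 and 0.694 CPM in the core and 0.0583, 0.231 and 0.115 CPM contralaterally) rose by 2.71 ± 0.52. The chemokine Ccl5, which T cells and other leukocytes release, was at 6.03, 4.21 and 4.96 CPM in the core and 0.466, 0.520 and 1.73 CPM contralaterally and rose as well, with a smaller p. Cd4, the coreceptor of helper T cells, fell to 3.57, 3.36 and 1.97 CPM in the core, against 11.4, 4.57 and 5.02 CPM contralaterally (-1.21 ± 0.40, adjusted p = 0.032), a call that was lost without contralateral replicate 1, where it was highest, and without any 1 of the core replicates. The T cell receptor chains Cd3e, Cd3d and Cd3g had at most 9 counts in any of the 6 libraries and were not tested. On the contralateral side, where Cd4 was higher, these chains reached at most 0.0583 CPM. Which cells the Cd4 counts and their fall came from was not tested. Of 6 B and plasma cell markers only the receptor chain Cd79b was tested, and it rose by 2.66 ± 0.44.

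Lysosomal and phagocytic genes rose without exception. All 20 tested members were called (median 2.71), from the membrane proteins Lamp1 (1.28 ± 0.10) and Lamp2 (1.57 ± 0.10) to the scavenger receptors Msr1 and Stab1. Msr1, which takes up oxidised lipoproteins, was at 80.9, 80.0 and 77.6 CPM in the core and 1.22, 1.39 and 0.692 CPM contralaterally (6.19 ± 0.16, adjusted p = 2.9e-06). Stab1, a clearance receptor, was at 563, 654 and 454 CPM in the core and 25.8, 21.8 and 16.7 CPM contralaterally (4.72 ± 0.20). The lysosomal protease Ctsh rose by 3.49 ± 0.16. The lowest core library was above the highest contralateral one for all 20.

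Genes that export or store cholesterol were higher in the knockout core, and genes that make it were lower. Of 20 genes of lipid efflux and storage 14 rose and 4 fell (median 1.14). Plin2, the coat protein of lipid droplets, was at 508, 626 and 465 CPM in the core and 11.8, 13.1 and 8.88 CPM contralaterally (5.59 ± 0.18, adjusted p = 2.9e-06). The cholesterol exporters Abca1 and Abcg1 rose by 2.93 ± 0.15 and 0.94 ± 0.08. Among those that fell were the lipoprotein receptor Vldlr (-0.56), the fatty acid carrier Fabp3 (-0.61) and the neuronal cholesterol hydroxylase Cyp46a1 (-0.77). The lowest log2 fold change of the list was -1.00. When a change past 1.5-fold was tested, 12 members were called higher and 0 lower.

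Of 22 genes of cholesterol synthesis 21 fell and 1 rose (median -0.96). Hmgcs1, an early enzyme of the pathway, was at 121, 140.4 and 133 CPM in the core and 259, 336 and 299 CPM contralaterally (-1.15 ± 0.10, adjusted p = 6.2e-05), and the squalene synthase Fdft1 was at 43.9, 43.9 and 44.4 CPM and 106, 101 and 93.1 CPM in the same order (-1.16 ± 0.08). Srebf2, the transcription factor that drives the pathway in response to low sterol, fell as well (-0.98 ± 0.07). The groups did not overlap for any of the 22 members. The exception in direction was the isomerase gene Ebp (0.29 ± 0.09), which was not called on the TPM scale or with all 18 libraries in the fit. In that fit 16 of the falls were called, and 13 were when a change past 1.5-fold was tested. Summed over the list, synthesis genes stood at 748, 816 and 809.7 CPM in the core and 1477, 1694 and 1542 CPM contralaterally. Neuron markers and 3 myelin genes, of cells that also make sterols, fell in the same libraries by the values given below, and their part in the result was not tested.

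The sterol regulatory element bound by the Srebf2 protein was searched for in the promoters as TCACNCCAC on both strands, in RefSeq promoter windows (GRCm38.p6, 250 bases before to 50 after each gene's start), which covered 11846 of the 14964 genes tested. Of 16 synthesis genes with a window, Hmgcs1 alone held it (6.25%), against 162 of all 11846 genes (1.37%). Its window, chr13:119690101-119690400, plus strand, is shown with the match in capitals, starting 137 bases before the gene's start.
Hmgcs1: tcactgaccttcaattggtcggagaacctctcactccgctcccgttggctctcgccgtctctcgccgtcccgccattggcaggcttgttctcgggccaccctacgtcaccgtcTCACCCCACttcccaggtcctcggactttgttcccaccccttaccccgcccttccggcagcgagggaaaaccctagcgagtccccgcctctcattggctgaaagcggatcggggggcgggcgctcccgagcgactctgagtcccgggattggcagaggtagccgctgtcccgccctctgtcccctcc
A match is a run of letters and not a measured binding site, and no match says only that these letters are not in the window.

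Interferon-stimulated genes were higher in the knockout core in all 19 cases tested (median 2.47). Isg15, a ubiquitin-like protein that type I interferon induces, was at 36.5, 38.9 and 29.1 CPM in the core and 2.80, 3.29 and 9.06 CPM contralaterally (2.81 ± 0.38, adjusted p = 0.00048). Ifit1, which binds foreign RNA caps, was at 39.4, 42.2 and 35.4 CPM in the core and 4.20, 5.78 and 13.2 CPM contralaterally (2.36 ± 0.35). Contralateral replicate 3 was the highest of its group for both, and its summed level over the list was the highest too, at 177, 209 and 336 CPM in contralateral replicates 1, 2 and 3, against 1133, 1253 and 916 CPM in the core. The nucleic acid sensor Zbp1 (4.09 ± 0.27), the antiviral tether Bst2 (3.05 ± 0.20) and the entry blocker Ifitm3 (2.45 ± 0.14) had the smallest p-values.

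The promoters of this list were searched for GAAANNGAA on both strands, a short form of the interferon-stimulated response element bound by STAT and IRF factors. It was present in 10 of 15 members with a window (66.7%), against 1037 of all 11846 genes (8.75%). The 4 members with 2 or more matches before the gene's start are shown so that the spacing of the copies can be seen, with the 3 matches in each of Isg15, Ifit1 and Ifit3 and the 2 in Bst2 in capitals (overlapping matches run together). Windows lie at chr4:156200769-156201068, minus strand (Isg15), chr19:34640639-34640938, plus strand (Ifit1), chr19:34583279-34583578, plus strand (Ifit3) and chr8:71537423-71537722, minus strand (Bst2).
Isg15: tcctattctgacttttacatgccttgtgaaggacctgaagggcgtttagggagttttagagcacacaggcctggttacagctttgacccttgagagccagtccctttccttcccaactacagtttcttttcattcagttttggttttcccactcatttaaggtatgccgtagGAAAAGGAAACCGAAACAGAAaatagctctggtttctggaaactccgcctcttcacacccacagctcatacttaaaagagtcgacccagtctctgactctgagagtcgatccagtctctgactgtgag
Ifit1: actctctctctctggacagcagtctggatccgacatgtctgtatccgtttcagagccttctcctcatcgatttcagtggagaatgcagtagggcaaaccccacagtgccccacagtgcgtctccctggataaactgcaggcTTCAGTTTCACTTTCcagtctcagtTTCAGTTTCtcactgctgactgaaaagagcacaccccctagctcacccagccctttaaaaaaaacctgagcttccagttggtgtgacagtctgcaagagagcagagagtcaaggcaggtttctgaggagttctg
Ifit3: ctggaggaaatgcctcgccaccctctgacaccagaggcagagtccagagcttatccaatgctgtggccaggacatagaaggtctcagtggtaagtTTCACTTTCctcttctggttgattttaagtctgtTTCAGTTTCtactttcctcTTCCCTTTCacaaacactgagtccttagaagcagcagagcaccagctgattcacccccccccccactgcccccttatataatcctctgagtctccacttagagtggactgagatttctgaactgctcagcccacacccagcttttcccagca
Bst2: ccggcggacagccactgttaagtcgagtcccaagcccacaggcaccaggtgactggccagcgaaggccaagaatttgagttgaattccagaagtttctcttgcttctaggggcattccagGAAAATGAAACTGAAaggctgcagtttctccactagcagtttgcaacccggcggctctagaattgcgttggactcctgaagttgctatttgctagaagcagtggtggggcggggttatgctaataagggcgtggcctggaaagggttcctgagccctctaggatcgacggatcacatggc
The first match began 78 bases before the start of Isg15, 109 before Ifit1, 155 before Ifit3 and 130 before Bst2. The core of the CLEAR element (TCACGTGA), to which lysosomal regulators bind, was in none of the 15 lysosome and phagocytosis genes with a window and in 1.98% of all genes. At that share 15 genes would most often hold none, so the absence does not set the list apart.

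Genes for antigen presentation and complement were higher in the core too. All 11 class I genes rose (median 2.68), with the class I chain H2-K1 at 338, 435 and 252 CPM in the core and 44.5, 55.5 and 55.4 CPM contralaterally (2.74 ± 0.19), the immunoproteasome subunit Psmb8 up by 2.92 ± 0.18 and the peptide transporter Tap1 by 2.69 ± 0.15. H2 genes are near-identical copies, so their split is uncertain. Of 11 class II genes 10 rose (median 2.47). H2-Aa was at 27.8, 42.5 and 18.4 CPM in the core and 3.09, 2.77 and 2.94 CPM contralaterally (3.35 ± 0.30, adjusted p = 6.5e-05), highest in core replicate 2. Complement genes rose in 15 of 16 cases (median 2.75). C1qa, a chain of the initiating complex, was at 1025, 1092 and 779.9 CPM in the core and 97.4, 85.4 and 71.3 CPM contralaterally (3.53 ± 0.17), and C5ar1, the receptor for the fragment C5a, rose by 5.11 ± 0.24. C4b, which astrocytes also make, rose by 1.93 ± 0.09. It was at 442, 383 and 387 CPM in the core and 439, 365 and 320.5 CPM in peri-infarct tissue, and this difference was not called (core over peri-infarct 0.08 ± 0.11).

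Among signals that attract leukocytes, 14 of 16 chemokines rose (median 3.41). Ccl2, the ligand of Ccr2, was at 10.2, 10.2 and 11.7 CPM in the core and 0.291, 0.289 and 0.173 CPM contralaterally (5.41 ± 0.23, adjusted p = 4.2e-06). Ccl3 rose by 5.28 ± 0.36 and Cxcl16 by 3.78 ± 0.24. The neuronal chemokine Cx3cl1 (-1.05) and Cxcl14 (-0.28) fell. Of 17 cytokine and inflammasome genes 15 rose (median 2.78), among them the inflammatory cytokine Il1b at 10.5, 12.3 and 8.43 CPM in the core and 0.466, 0.578 and 0.750 CPM contralaterally (4.13 ± 0.24) and its natural antagonist Il1rn at 7.76, 11.1 and 9.07 CPM and 0.0583, 0.289 and 0.0577 CPM (6.06 ± 0.41). The inflammasome adaptor Pycard rose by 3.18 ± 0.15. Il6 had at most 6 counts and Il10 at most 2 in any of the 6 libraries, and neither was tested.

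Matrix genes were higher in the knockout core throughout. All 16 collagens (median 2.68) and all 20 other matrix and cross-linking genes (median 3.28) rose. Col1a1, the main fibrillar collagen of scars, was at 513, 1108 and 851 CPM in the core and 11.8, 5.95 and 13.7 CPM contralaterally (6.32 ± 0.40, adjusted p = 1.3e-05), and Col1a2 rose by 5.26 ± 0.30. The basement membrane collagen Col4a1 rose by 3.17 ± 0.14 and the fibril regulator Col5a2 by 5.06 ± 0.23. Lox, the enzyme that cross-links collagen, was at 82.4, 142 and 118 CPM in the core and 0.758, 0.520 and 1.67 CPM contralaterally (6.87 ± 0.34), and fibronectin (Fn1) rose by 4.13 ± 0.27. The clot and matrix protein Thbs1 rose by 5.13 ± 0.22. Core replicate 2 was the highest and core replicate 1 the lowest for Col1a1, Col1a2, Col3a1, Lox and Fn1. For each of these 5 the lowest core library was far above the highest contralateral one.

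Markers of fibroblasts moved more than those of mural cells. Fibroblast markers rose in 10 of 11 cases (median 3.06), with a summed level of 863, 1685 and 1305 CPM in the core and 143, 121 and 128 CPM contralaterally. Lum, a small proteoglycan of fibroblasts, was at 45.3, 76.0 and 58.4 CPM in the core and 3.91, 4.68 and 4.04 CPM contralaterally (3.85 ± 0.20), and Fbln2 rose by 3.40 ± 0.21, while Pdgfra, which oligodendrocyte precursors share, rose by 0.45 ± 0.11 only. Of 11 mural cell genes 7 rose (median 0.39). The contractile genes Acta2 (39.7, 61.7 and 50.6 CPM in the core and 5.36, 5.43 and 5.42 CPM contralaterally, 3.25 ± 0.17) and Tagln (3.31 ± 0.21) led them, which myofibroblasts also carry. The pericyte genes Kcnj8 (-0.27 ± 0.22), Abcc9 and Vtn and the smooth muscle myosin Myh11 were not called, and Rgs5 rose by 0.39 ± 0.08.

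Matrix-cutting enzymes and growth signals accompanied the collagens. Of 18 metalloproteases and inhibitors 11 rose and 2 fell (median 2.66). Mmp2, a gelatinase, was at 30.5, 55.4 and 38.6 CPM in the core and 3.79, 4.05 and 2.08 CPM contralaterally (3.67 ± 0.29), and Mmp19 rose by 3.87 ± 0.19. Mmp17 (-1.12) and Mmp24 (-0.75), both membrane-type enzymes, fell. Of 17 genes of TGF-beta signalling 11 rose (median 0.82). Tgfbi, a matrix protein that TGF-beta induces, was at 94.3, 125 and 99.6 CPM in the core and 6.06, 5.26 and 4.96 CPM contralaterally (4.31 ± 0.14, adjusted p = 2.9e-06). The ligand Tgfb1 rose by 2.84 ± 0.25 and the receptor Tgfbr2 by 2.74 ± 0.17, whereas Tgfb2 was not called (-0.19 ± 0.31). Of 12 proteoglycan and perineuronal net genes 3 rose, led by the hyaluronan synthase Has2 (3.87 ± 0.27) and Vcan (1.56 ± 0.13), and 2 fell, Bcan (-0.47 ± 0.09) and the link protein Hapln4 (-1.00 ± 0.10). Neither share was above that over all genes tested (30.2% higher and 25.8% lower).

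Vessel genes rose by smaller amounts. Of 15 endothelial and barrier genes 8 rose and 1 fell (median 0.62). The tight junction gene Cldn5 was at 36.7, 34.5 and 30.3 CPM in the core and 22.3, 15.8 and 15.5 CPM contralaterally (0.95 ± 0.16), the junction cadherin Cdh5 rose by 2.00 ± 0.20 and the growth factor receptor Kdr by 1.05 ± 0.10. Mfsd2a, a lipid transporter that keeps the barrier closed, was the one that fell (-0.98). Among 18 vascular growth factors and receptors 10 rose and 2 fell (median 0.70). Angpt2, which loosens vessels for sprouting, was at 11.7, 16.4 and 13.1 CPM in the core and 1.87, 1.04 and 1.04 CPM contralaterally (3.40 ± 0.25), while Vegfa, the main vascular growth factor, fell to 32.3, 36.6 and 40.4 CPM in the core, against 47.8, 57.4 and 60.3 CPM contralaterally (-0.57 ± 0.11, adjusted p = 0.0036).

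Energy genes did not move as a block. Of 20 hypoxia and glycolysis genes 6 rose and 8 fell (median -0.15), and with all 18 libraries in the fit 4 were called higher and 2 lower. The share that rose was close to the 30.2% of all genes tested, and the share that fell was above their 25.8%. Hk2, the hexokinase of activated cells, was at 51.7, 59.1 and 41.5 CPM in the core and 7.29, 9.59 and 8.36 CPM contralaterally (2.62 ± 0.15), and Hif1a, the hypoxia factor, rose by 1.42 ± 0.09. The neuronal glucose transporter Slc2a3 fell to 86.8, 94.2 and 86.4 CPM in the core, against 155, 147 and 149 CPM contralaterally (-0.73 ± 0.06). Nuclear genes of the respiratory chain fell in 19 of 21 cases, by small amounts (median -0.32), with Ndufv1 at -0.48 ± 0.06 and Cox8a at -0.53 ± 0.07. With all 18 libraries in the fit 8 of them were called, and 0 were when a change past 1.5-fold was tested.

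Cell division genes were higher in the core by similar amounts in its 3 libraries. All 20 rose (median 3.15). Mki67, a marker of dividing cells, was at 77.1, 77.8 and 78.1 CPM in the core and 4.08, 6.13 and 4.73 CPM contralaterally (3.99 ± 0.13, adjusted p = 2.9e-06). The topoisomerase Top2a was at 70.3, 72.5 and 75.9 CPM in the core and 3.38, 4.51 and 5.94 CPM contralaterally (4.01 ± 0.16), and the mitotic kinase Cdk1 rose by 3.94 ± 0.16. Summed over the list, the core held 528, 519 and 527 CPM, a narrower spread than for the macrophage or fibroblast lists, and the contralateral side 91.5, 105 and 102 CPM.

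Most genes of iron and heme handling were higher in the core. Of 17 genes 13 rose and 1 fell (median 1.16). Hmox1, which breaks heme down to iron and biliverdin, was at 229.6, 348 and 178 CPM in the core and 7.58, 6.53 and 5.71 CPM contralaterally (5.27 ± 0.27, adjusted p = 6.1e-06). Ftl1 was at 2019, 2646 and 1765 CPM in the core and 279, 255 and 241 CPM contralaterally (3.07 ± 0.15), and the lysosomal iron transporter Slc11a1 rose by 3.69 ± 0.28. The iron uptake receptor Tfrc fell (-0.69). Red cell transcripts moved with 1 library. Hbb-bs, adult beta-globin, was at 1.28, 44.1 and 3.41 CPM in core replicates 1, 2 and 3 and at 1.17, 7.34 and 1.79 CPM contralaterally, none of the 4 tested red cell genes was called, and the fitted difference of Hbb-bs was 2.25 ± 1.23 with core replicate 2 and -0.50 without it. Hmox1 was also highest in that library, and the part of residual blood in the rise was not tested.

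Markers of reactive astrocytes were higher in the core, while those of resting astrocytes were divided. All 21 reactive markers rose (median 2.38). Gfap, the filament protein of reactive astrocytes, was at 4326, 2968 and 4031 CPM in the core and 849, 718 and 845 CPM contralaterally (2.26 ± 0.16, adjusted p = 2.0e-05). Vim, a second filament gene that macrophages and fibroblasts share, was at 726, 652 and 671 CPM in the core and 74.7, 71.8 and 59.5 CPM contralaterally (3.34 ± 0.11), and the hyaluronan receptor Cd44 rose by 3.63 ± 0.13. Osmr, receptor for oncostatin M, rose by 2.65 ± 0.10 and the membrane protein Emp1 by 4.26 ± 0.16. Of 15 resting astrocyte genes 3 rose and 5 fell (median -0.11), and none was called with all 18 libraries in the fit. Over all genes tested 30.2% rose and 25.8% fell. The water channel Aqp4 rose (0.81 ± 0.11), the amino acid transporter Slc7a10 fell (-0.81 ± 0.13), and the glutamate transporter Slc1a2 was not called (-0.23 ± 0.12).

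Oligodendrocyte genes gave few calls in either direction. Of 15 myelin genes 3 fell and none rose (median -0.30), against 25.8% and 30.2% of all genes tested in the same order. Mbp, myelin basic protein, was at 3624, 2493 and 3362 CPM in the core and 3147, 4036 and 3837 CPM contralaterally (-0.19 ± 0.16, not called), and core replicate 2 was the lowest. The 3 that fell were Mobp (-0.47 ± 0.16), Opalin (-0.56 ± 0.14) and Mal (-0.65 ± 0.20). None of the 3 was called with all 18 libraries in the fit, and the calls of Mobp and Mal were lost without contralateral replicate 2 or 3, and that of Mobp also without core replicate 2 or 3. Of 11 precursor genes 6 rose (median 0.35), with Gpr17, a receptor of differentiating precursors, at 89.6, 102 and 99.1 CPM in the core and 72.6, 61.7 and 62.8 CPM contralaterally (0.59 ± 0.09) and the matrix gene Matn4 up by 1.70 ± 0.19.

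Neuronal transcripts were reduced but far from absent in the dissected core. Of 15 excitatory cortical markers 12 fell and none rose (median -0.80). Slc17a7, the vesicular glutamate transporter of cortical neurons, was at 598, 532 and 432 CPM in the core and 889, 1168 and 964 CPM contralaterally (-0.93 ± 0.14, adjusted p = 0.00090). Of 12 inhibitory markers 8 fell (median -0.92). Sst, the neuropeptide somatostatin, was at 34.3, 39.9 and 28.3 CPM in the core and 137, 109 and 99.5 CPM contralaterally (-1.73 ± 0.16), and Npy, another neuropeptide, fell too (-1.66 ± 0.24). Gad1 and Gad2, which make GABA, varied among the core libraries, with Gad1 at 134, 205 and 257 CPM and Gad2 at 57.3, 121 and 169 CPM there, against 383, 320.0 and 369 CPM and 277, 138 and 208 CPM contralaterally. Gad1 fell (-0.82 ± 0.21), a call lost without core replicate 2 (adjusted p = 0.063), and Gad2 was not called. The summed level of the excitatory markers was 3244, 2684 and 2368 CPM in the core and 4964, 5655 and 5089.7 CPM contralaterally. How much tissue beside the dead zone the dissection took along was not tested.

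Synaptic and channel genes fell in nearly every member tested. All 20 synaptic vesicle and scaffold genes fell (median -0.89). Snap25, part of the fusion machinery, was at 1232, 1303 and 1201 CPM in the core and 2602, 2789 and 2720.2 CPM contralaterally (-1.09 ± 0.07, adjusted p = 1.3e-05). The scaffold Shank3 was at 92.4, 91.8 and 89.6 CPM in the core and 171, 177 and 171 CPM contralaterally (-0.90 ± 0.06). Of 20 glutamate and GABA-A receptor genes 19 fell (median -0.75), among them the obligatory NMDA subunit Grin1 (-1.00 ± 0.11), and Gria1 was not called (-0.64 ± 0.24). All 20 voltage-gated channel genes fell (median -0.85), with the sodium channel Scn2a at -0.86 ± 0.07. These calls rest on the spread within the 6 libraries. When all 18 libraries shared 1 estimate of the spread, which then included the wild-type core library that stood apart, 0 of 20 synaptic, 0 of 20 receptor, 1 of 20 channel, 0 of 15 excitatory and 1 of 12 inhibitory genes were called lower.

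Genes that firing neurons induce were lower or not called, with few exceptions. Of 15 immediate early genes 7 fell and 2 rose (median -0.67). Npas4, which neurons induce on firing, was at 3.79, 5.40 and 4.91 CPM in the core and 18.1, 17.9 and 22.6 CPM contralaterally (-2.02 ± 0.16, adjusted p = 3.3e-05), and Egr3 (-1.32 ± 0.19) and Nr4a1 (-1.33 ± 0.21) fell. Fos was not called (0.35 ± 0.16). Of 15 genes of axon growth and injury 5 rose and 8 fell (median -0.22), where 30.2% of all genes tested rose and 25.8% fell. Atf3, a transcription factor of injured neurons that macrophages also induce, was at 24.6, 34.4 and 22.6 CPM in the core and 3.50, 3.12 and 1.90 CPM contralaterally (3.28 ± 0.24), whereas Stmn2, a growth cone protein, fell (-0.93 ± 0.09). With all 18 libraries in the fit 1 immediate early gene and 0 axon genes were called lower.

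The largest falls were in genes of structures that lie beneath the cortex, and their levels varied among the contralateral libraries. The 10 largest falls were taken under the same conditions as the rises. Among them, Clic6, Sostdc1 and Prlr are choroid plexus genes, Drc7 and Hydin are genes of motile cilia, and the adenosine receptor Adora2a is striatal. Clic6 was at 0.670, 3.02 and 2.13 CPM in the core and 8.86, 68.0 and 3.92 CPM contralaterally, and Prlr at 1.28, 0.740 and 3.57 CPM and 6.47, 40.5 and 3.98 CPM. Contralateral replicate 2 held most of both. Ttr, the transport protein that marks choroid plexus, was at 1.40, 2.33 and 16.2 CPM in the core, 477, 8.88 and 1899 CPM in peri-infarct tissue and 2.68, 2162 and 29.6 CPM contralaterally, and was not called (-6.73 ± 2.76). Without contralateral replicate 2 the fold changes of Prlr and Sostdc1 were -1.45 and -1.20, and neither was called. The calls of Clic6, Sostdc1, Prlr and Drc7 were each lost when any 1 core library was left out. Of 9 choroid plexus genes 4 fell (median -3.14), a count that ranged from 0 to 9 when 1 library was left out.

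Striatal genes fell in 10 of 10 cases (median -2.01). The dopamine receptor Drd2 was at 4.35, 1.71 and 3.25 CPM in the core and 33.9, 11.3 and 17.2 CPM contralaterally (-2.71 ± 0.47, adjusted p = 0.0017), highest in contralateral replicate 1, and Drd1 was at 7.70, 3.41 and 4.16 CPM and 39.0, 19.2 and 22.6 CPM (-2.38 ± 0.37). Without core replicate 2, 6 of the 10 were called, and with all 18 libraries in the fit 2 were. Six3, a transcription factor of striatal development, was among the largest falls (-3.73 ± 0.69). Trh, the precursor of thyrotropin-releasing hormone, was at 0.502, 0.284 and 0.213 CPM in the core and 16.1, 0.867 and 3.81 CPM in contralateral replicates 1, 2 and 3 (-4.33 ± 1.08), a call lost without core replicate 2 or 3. Sh3rf2 fell too (-3.52 ± 0.70) and was highest in contralateral replicate 1. The call of Adora2a was lost without contralateral replicate 1 or core replicate 2 or 3.

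Motile cilium genes fell in 12 of 14 cases, with Ccdc153 at 0.726, 0.114 and 1.39 CPM in the core and 4.02, 6.47 and 4.21 CPM contralaterally (-2.67 ± 0.58) and Cfap65 lower as well (-2.59 ± 0.45). With all 18 libraries in the fit 3 were called. Marker levels of these deep structures differed from library to library, and the part of the dissection in the falls was not tested.

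**Figure D3:**
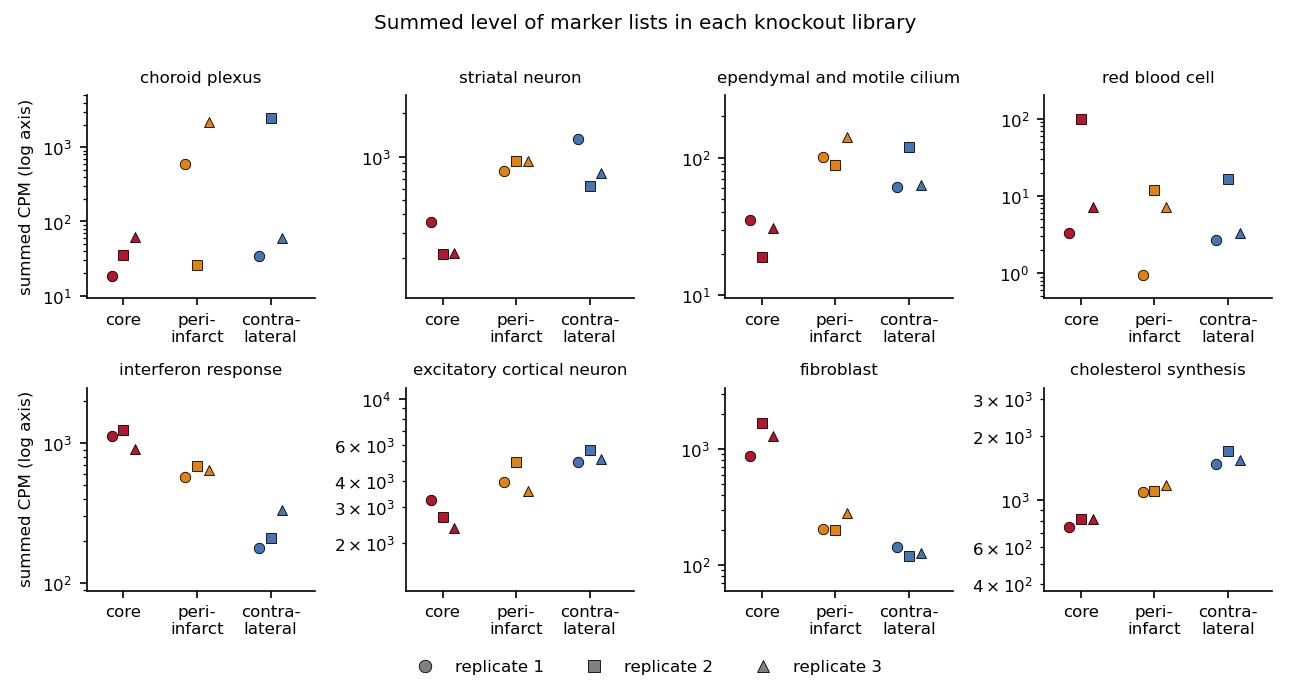
Summed CPM of the members of 8 lists on a log axis, 1 symbol per replicate, for knockout core, peri-infarct and contralateral libraries from left to right. Choroid plexus genes reach 2501 CPM in 1 contralateral and 2211 CPM in 1 peri-infarct library. They stay below 62 CPM in the core, but also in contralateral replicates 1 and 3 (33.8 and 59.6 CPM) and peri-infarct replicate 2 (26.3 CPM). Red cell genes stand apart in core replicate 2 at 99.9 CPM, and fibroblast and cholesterol synthesis genes separate the core from both other regions.

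Set against the peri-infarct tissue around it, the knockout core was higher in most matrix, cell division and lysosomal genes tested and lower in most myelin and synaptic genes. Of 15143 genes tested over the 9 knockout libraries 6120 (40.4%) were called, 3335 higher in the core (22.0%) and 2785 lower (18.4%). Those shares are the background for each count of list members called against peri-infarct tissue. The 5 genes with the smallest p-values were the tropomyosin Tpm4, Acta2, Emp1, the integrin Itgb1 and Vwa5a. Tpm4 was at 190.0, 213 and 202 CPM in the core, 59.1, 58.3 and 74.4 CPM in peri-infarct tissue and 40.0, 36.1 and 39.1 CPM contralaterally (core over peri-infarct 1.63 ± 0.10, adjusted p = 9.2e-05). Itgb1, a receptor chain for matrix, was 1.08 ± 0.08 above peri-infarct tissue. Collagens were higher in the core than in peri-infarct tissue in 15 of 16 cases (median difference 1.76), fibroblast genes in 9 of 11 (2.34), cell division genes in 20 of 20 (1.48) and lysosomal genes in 19 of 20 (1.08).

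Myelin genes were lower in the core than in peri-infarct tissue in 14 of 15 cases (median -0.74). Over the contralateral libraries, which both comparisons share, their median was -0.30 in the core and 0.52 at the border. Mbp was at 3624, 2493 and 3362 CPM in the core and 5867, 4344 and 4864 CPM in peri-infarct tissue (-0.70 ± 0.16, adjusted p = 0.0074). Reactive astrocyte genes had medians over contralateral tissue of 2.38 in the core and 1.79 at the border, and 13 of 21 were higher in the core than at the border. Synaptic genes were lower in the core than at the border in 19 of 20 cases (median -0.59), and striatal genes in 10 of 10 (median -1.98). Of the cortical neuron markers fewer passed, with 5 of 15 excitatory (median -0.53) and 4 of 12 inhibitory genes (median -0.59) lower in the core. The cytokine Il1b and the platelet factor Pf4 were 3.35 ± 0.32 and 2.98 ± 0.32 higher in the core than at the border. Endothelial genes were higher in the core in 2 of 15 cases and lower in 3 (median 0.0065).

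**Figure D4:**
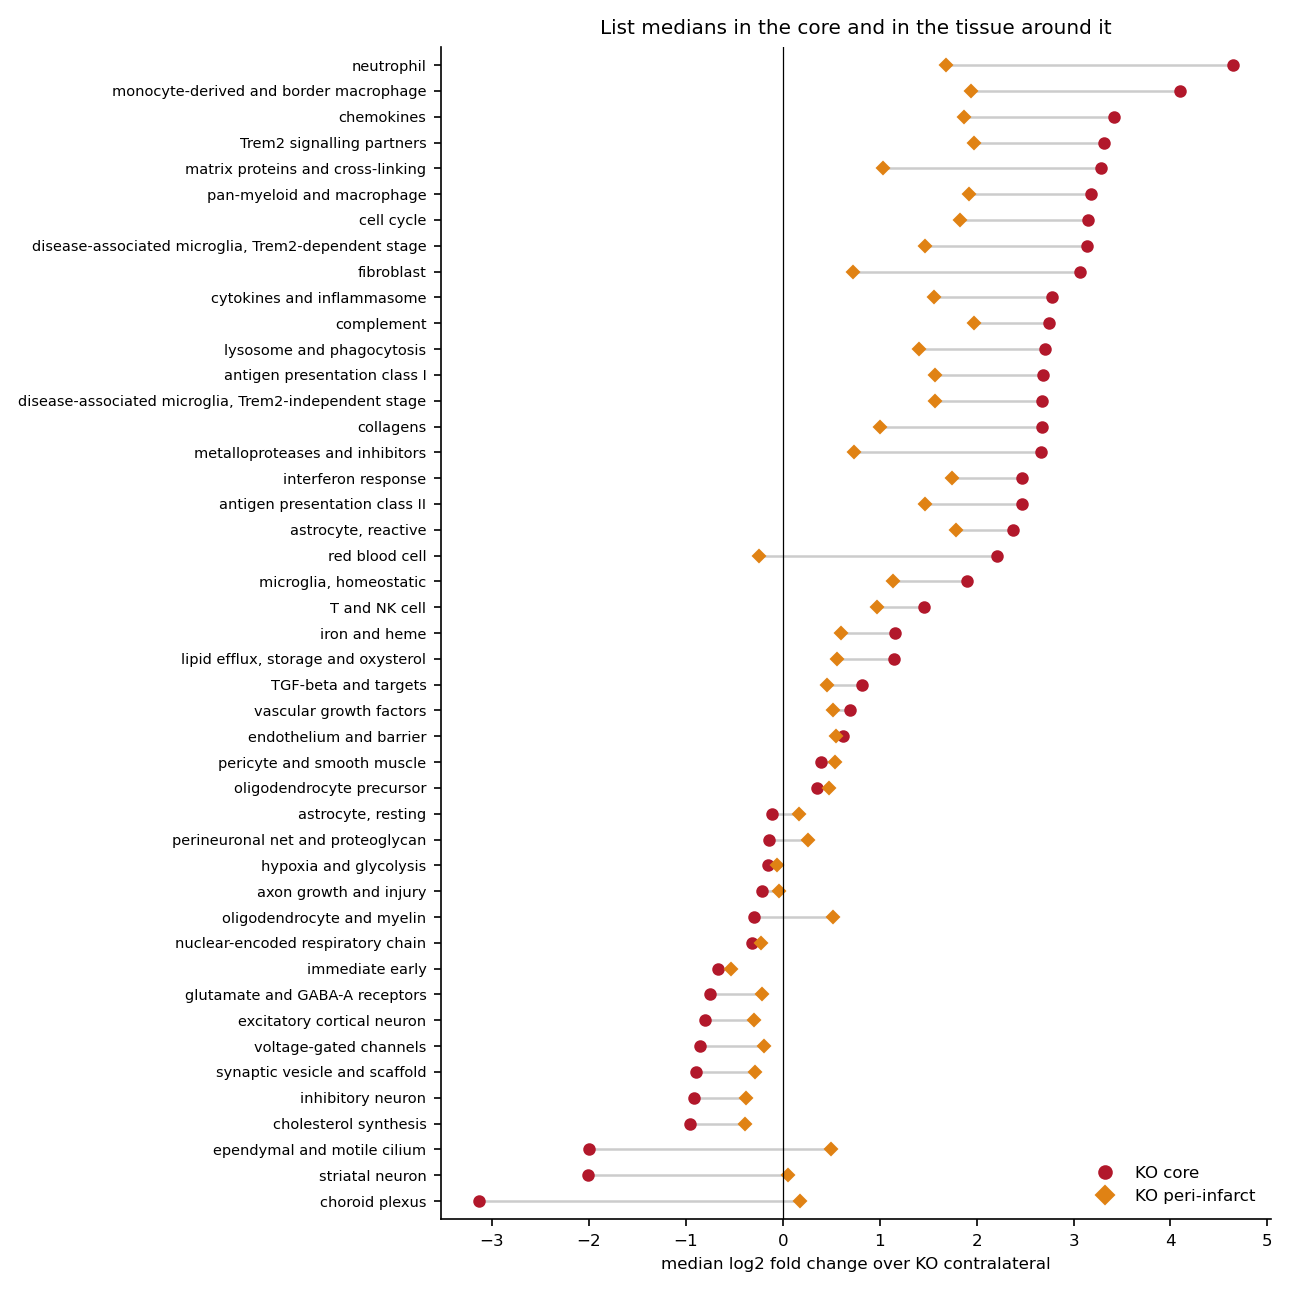
Median log2 fold change over knockout contralateral tissue of each list with at least 3 tested members, for the knockout core (red circles) and for knockout peri-infarct tissue (orange diamonds), which share the same contralateral libraries. For collagens the core median is 2.68 and the peri-infarct median 1.00, for neutrophil genes 4.64 and 1.68, and for myelin the 2 medians lie on either side of 0.

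The study's design asks whether loss of Trem2 alters the response of the core. The difference between the knockout response (core over contralateral) and the wild-type response was tested over 12 libraries, and of 15196 genes 0 passed edgeR's quasi-likelihood test (0%), while 179 had an unadjusted p under 0.05. With wild-type core replicate 3 left out again 0 of 15314 passed, and 1565 had an unadjusted p under 0.05. If no gene differed, a fraction of about 0.05 of the genes would be under that limit. The count with the library was below that fraction and the count without it was above, and the reason was not tested. DESeq2 called 2 genes, Osmr and Aldh1l2, both with a larger rise in the knockout. Osmr stood at 30.5, 32.7 and 33.1 CPM in the knockout core and 4.84, 5.55 and 5.25 CPM in knockout contralateral tissue, against 23.6, 27.3 and 24.8 CPM in the wild-type core and 6.54, 8.05 and 7.78 CPM in wild-type contralateral tissue, a difference of 0.87 ± 0.16 in the edgeR fit (adjusted p = 1.00). Aldh1l2, a mitochondrial folate enzyme, differed by 0.66 ± 0.13. The other genes with the smallest p were H2-T24, a class I gene with near-identical relatives (2.05 ± 0.43), the cell cycle gene Inca1 (1.26 ± 0.33) and the Polycomb subunit Pcgf5 (0.56 ± 0.15), and none passed.

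The genotype difference of several lists depended on wild-type core replicate 3, and no list was tested. Without wild-type core replicate 3, the median log2 fold change of Trem2 signalling partners was 3.31 in the knockout and 2.53 in the wild type, that of the second-stage microglial genes 3.14 and 2.68, and that of cholesterol synthesis -0.96 and -0.57. Interferon genes had medians of 2.47 in the knockout and 1.51 in the wild type, and chemokines 3.41 and 2.11. The median genotype difference of the Trem2 partners was -0.26 with that library and 0.66 without it, and that of the second-stage genes -0.43 and 0.32, so both changed sign. That of cholesterol synthesis was -0.08 with it and -0.31 without it, that of the interferon genes 0.39 and 1.03, and that of the chemokines 0.30 and 1.11. Lpl, a second-stage gene, rose by 2.47 ± 0.18 in the knockout and by 3.44 ± 0.20 in the wild type without that library. Its genotype difference was -2.05 ± 0.74 with the library (adjusted p = 1.00) and -0.96 ± 0.27 without it (adjusted p = 0.36), and neither was called. With or without it, no member of any list passed edgeR's test of the difference.

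**Figure D5:**
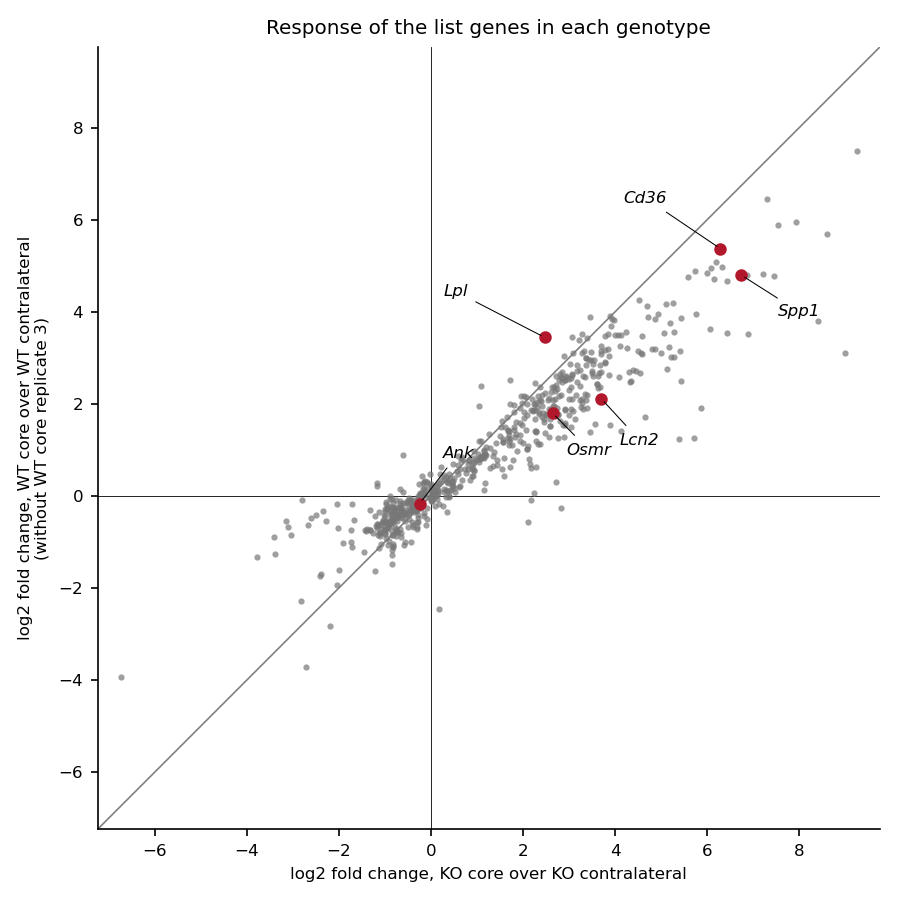
Each point is 1 of the 650 tested list genes, with the log2 fold change of the knockout core over knockout contralateral tissue on the x axis and that of the wild-type core over wild-type contralateral tissue, without wild-type core replicate 3, on the y axis. The grey diagonal marks equal responses, 396 genes lie below it and 254 above it (349 below and 301 above when that library is included), and the 6 labelled genes are shown in red.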

How the data were processed

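Polyadenylated RNA of 18 brain tissue libraries was sequenced with an MGIEasy stLFR kit, per the labels. The authors deposited a table of counts per gene, of which 3678 of 18922 genes held values that were not whole, so they are treated as estimated counts and were rounded. They also deposited TPM values, which scale each count by transcript length and library total. Per the submitters' processing notes, the tools were Bowtie2, HISAT2 (version 2.0.4) and Subread, and the build was GRCm39. Strand handling and the treatment of reads shared between near-identical genes are not given in the sources used.

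The design had assumed whole counts, and the same test was kept. The 6 knockout core and contralateral libraries were filtered with filterByExpr, scaled by TMM and tested with edgeR 4.0.16 (quasi-likelihood, robust) in R 4.3.3, with Benjamini-Hochberg adjustment at 0.05. Printed CPM values use TMM factors over all 18 libraries. Core against peri-infarct was fitted on 9 knockout libraries, and the genotype difference on 12 libraries as an interaction. The step was tested on simulated counts. Alternatives used DESeq2 1.42.0, limma 3.58.1 (voom, and log2(TPM + 1) or log2(TPM + 0.1)), other scaling factors and filters, other libraries in the fit, a fold of 1.5 tested, and leaving out each library.

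The comparison, the lists and their members were chosen with earlier results of these data known. Named genes are Trem2, the 10 largest rises and 10 largest falls among called genes whose groups did not overlap (mean log2 CPM of 1 or more, proper symbol), the first 2 genes and the 3 smallest p-values of each list, and the 5 smallest p-values of each other comparison under the same conditions. Members that went against their list were named after their values were seen. Some genes that the rule names are not reported here. RefSeq promoter windows (GRCm38.p6) matched 11846 of the 14964 genes tested and were searched on both strands. Each library held about the same total, from 16993978 to 18713770 counts.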

Additional observations from a re-analysis of the deposited data

Results flagged for a closer look

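Of 214 named genes, Inca1, a gene linked to the cell cycle, was the 1 whose core and contralateral libraries separated in opposite directions in the genotypes. Its name was chosen for a small p in the genotype difference of these same libraries, so the separation is not independent of that choice. Genes outside the named set were not searched for such a pattern. Inca1 was at 2.51, 2.67 and 3.04 CPM in the knockout core and 1.87, 1.97 and 2.25 CPM in knockout contralateral tissue. In the wild type it was at 1.64, 1.32 and 0.917 CPM in the core and 2.28, 2.27 and 2.28 CPM contralaterally. The genotype difference was 1.26 ± 0.33 on the log2 scale (SE, n = 3 libraries per group) and did not pass edgeR's test after adjustment over all genes.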

How the results depend on the processing

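The count of genes called in the knockout core against contralateral tissue depended on which libraries set the spread. With all 18 libraries in the fit 3524 genes were called, 3016 higher and 508 lower, and 44 of the 189 called named genes lost their call. With wild-type core replicate 3 left out of that fit 8854 were called. When a change past 1.5-fold was tested, 3055 were called, 2382 higher and 673 lower. DESeq2 called 2 genes for the genotype difference, both higher, where the other alternatives called 0. Leaving out 1 library in turn gave 7293 to 8019 genes for core against contralateral tissue (4073 to 4396 higher and 3178 to 3623 lower) and 4634 to 6311 for core against peri-infarct tissue. No named gene that was called changed direction under any of these alternatives, and 11 of 189 lost their call without at least 1 library. Most named genes were chosen for small p-values or large changes in the main fit, which favours stable calls. Of all 8384 genes called there, 7138 to 7646 were called again when 1 library was left out. With the replicate block 7866 genes were called for core against contralateral tissue, 5845 for core against peri-infarct tissue and 0 for the genotype difference. The labels do not say that equal numbers mark a pair. Deviations of same-numbered libraries from their group means had correlations of -0.22, -0.12 and 0.22. Core replicate 1 reached 0.32 with a contralateral library of another number. Deviations from a mean of 3 libraries depend on each other, so these values cannot show whether libraries were paired. Genes with a few counts on the contralateral side have fold changes that depth limits, and 30 of the 683 list genes were too low to test.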
